A study of Mus musculus with 8 samples.

Results

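Integrins and the proteins that tie them to the cytoskeleton at focal adhesions were followed through 8 libraries of messenger RNA from bone marrow mesenchymal stem cells. The set was defined by gene symbol, and it was chosen with earlier results of these data known. It takes the integrin alpha and beta subunits in the deposited table whose symbol ends in a number, together with Itgav and 15 adhesion proteins. Other subunits whose symbol ends in a letter are left out, among them Itga2b, the platelet alpha chain, and Itgam, a leukocyte one. The set came to 34 of 26873 features. These were 12 alpha subunits, 7 beta subunits, 9 structural proteins, 3 members of the ILK complex and 3 members of the FAK, paxillin and p130Cas group. Of these, 30 had enough counts to be tested, and Itga9, Itgb2, Itgb6 and Itgb7 did not.

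The labels describe a wild-type line of these cells under osteogenic differentiation, grown in medium in which PCL scaffolds had been soaked. Each of 4 arms (PCL-O, PCL-E, PCL-S and PCL-SE) had 1 library on day 3 and 1 on day 7. S7 and E7 are peptides according to the title, and the design lists them singly, combined and beside a blank. PCL-S was read as S7, PCL-E as E7, PCL-SE as S7 with E7 and PCL-O, by elimination, as the blank. The scaffold material, the wild-type genotype and the differentiation treatment were shared by all 4 arms, and neither the dose nor the sequence of the peptides is given in the sources used here. The labels' extraction protocol mentions 3 RNA samples, while the table has 1 column for each arm and day. Whether a column pools these samples or holds 1 of them is not stated, so no arm has a replicate of its own in these data.

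Integrins are transmembrane receptors built from 1 alpha and 1 beta subunit, and the pairing decides which matrix protein is bound. Inside the cell, talin and kindlin bind the beta tail, while vinculin, alpha-actinin, filamin and zyxin link the cluster to actin filaments. The ILK, PINCH and parvin complex is an adaptor on the beta tail, and focal adhesion kinase, paxillin and p130Cas pass on adhesion signals. In stromal cells of the bone marrow these assemblies carry the cell's grip on collagen, fibronectin and laminin and are known to take part in its response to matrix stiffness.

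Because S7 and E7 form a complete layout over the 2 days, the 2 libraries with S7 were set against the 2 without it on each day. The model held S7, day, their interaction and E7, and left 3 residual degrees of freedom. Its p-values therefore rest on how alike the arms pooled on each side were, and not on the spread between cultures. A member was called when edgeR's quasi-likelihood test gave an adjusted p (Benjamini-Hochberg, over all 15942 genes tested) under 0.05. Levels of a gene are given in CPM, its counts scaled to a common library total, with TMM, a factor that evens out library composition. Where a pair of values is given for the arms with S7, PCL-S comes first and PCL-SE second, and without S7 PCL-O comes first and PCL-E second. Total counts ran from 32950326 to 41754124 per library, where 3 counts correspond to 0.0718 to 0.091 CPM before TMM. The TMM factors of the 2 S7 libraries of day 7 were 1.15 and 1.156, against 0.9284 to 1.02 in the other libraries. In bulk RNA, fewer cells of a kind and less RNA of a gene in each cell cannot be told apart.

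The set was dominated by a few abundant transcripts. Compared per length, on the deposited FPKM scale, Itgb1 came first with a median of 918 over the 8 libraries. Flna (filamin A, an actin crosslinker) followed at 797, Actn4 (alpha-actinin 4) at 429, Actn1 (alpha-actinin 1) at 317 and Vcl (vinculin) at 249. Itgb1, the beta 1 chain that pairs with most collagen, fibronectin and laminin receptors, made up 99.1% to 99.7% of the summed beta subunit FPKM in all 8 libraries. Among the alpha subunits the highest medians were 83.0 FPKM for Itga8, 81.1 for Itga11 and 78.7 for Itgav.

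The subunits that were not tested were at the floor of detection. Itgb2, the leukocyte beta chain, had no count in any library, and Itgb7 had 0 to 16 counts. Itgb6, an epithelial beta chain, had 3 to 12 counts, and Itga9 had 2 to 7 counts on day 3 and none on day 7. Of the leukocyte markers, 8 of 9 were found and all 8 stayed below 1 CPM. Their summed level was 0.578 to 1.05 CPM, with Adgre1, Cd3e and Ms4a1 at 0.

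**Figure D1:**
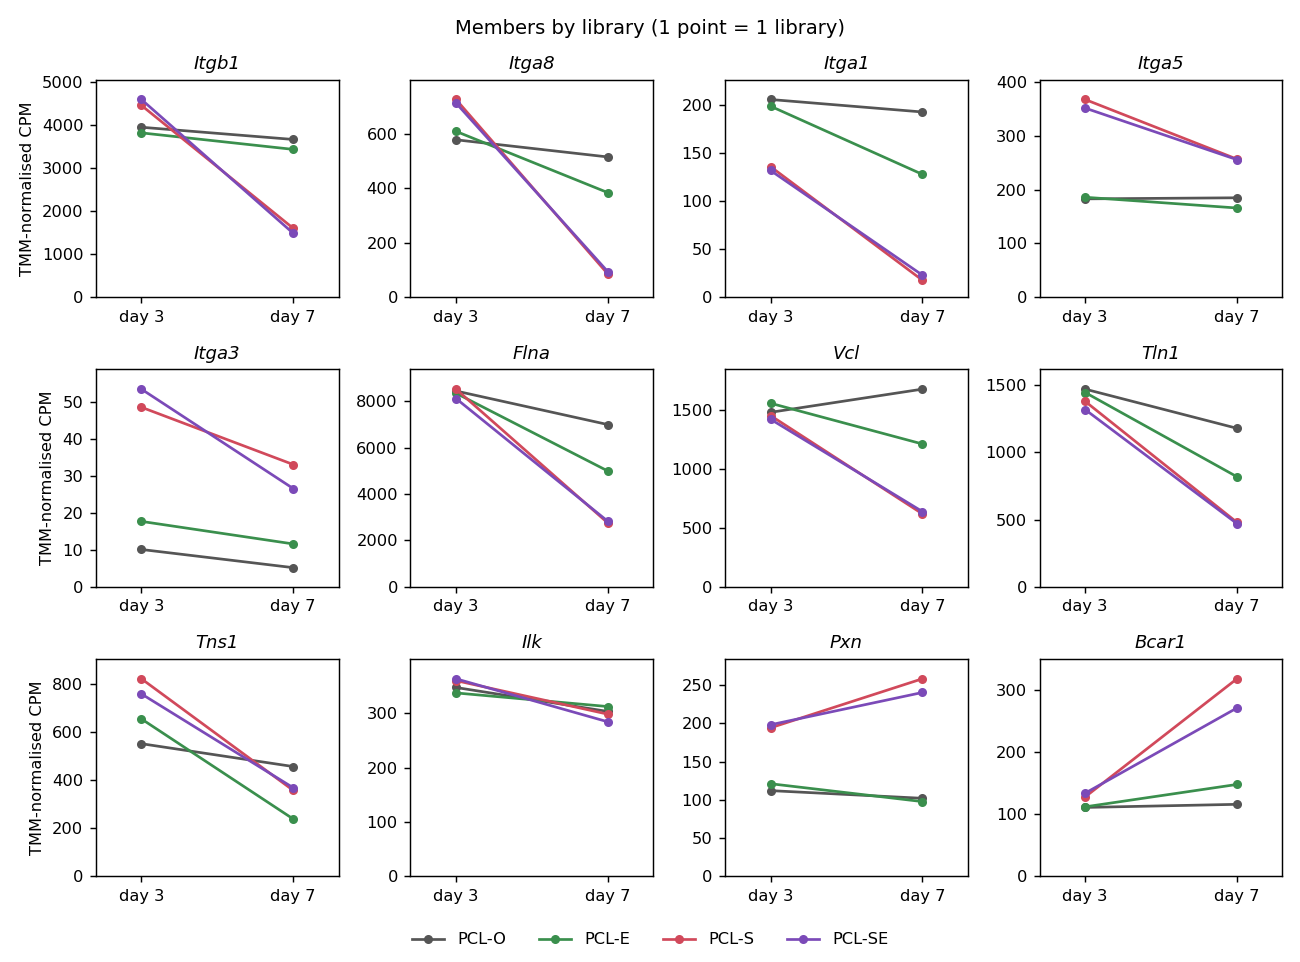
TMM-normalised CPM of 12 members on day 3 and day 7 (vertical axes start at 0; 1 point is 1 library and each line joins the libraries of 1 arm, with no error bar because each arm and day has 1 library). In 9 of the 12 panels (Itgb1, Itga8, Itga1, Itga5, Flna, Vcl, Tln1, Tns1 and Ilk) the PCL-S and PCL-SE lines drop to day 7 by amounts called in the test; Pxn and Bcar1 climb in those arms instead.

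Within the set, the arms with S7 differed on day 3 from those without it in a handful of integrin subunits and hardly in the other members. Of 30 tested members 5 were higher and 3 were lower. Over all genes tested, 7.1% were called higher and 6.87% lower. The median log2 fold change of the members was 0.10, against 0.00 over all genes. None of the 9 structural proteins and none of the 3 ILK complex genes was among the calls.

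Itga5, the alpha chain of the fibronectin receptor, was measured at 183 CPM in PCL-O, 186 in PCL-E, 352 in PCL-SE and 368 in PCL-S. The 2 pairs lay far apart, and the log2 fold change was 0.96 ± 0.08 (SE; adjusted p = 0.0016). Itga3, an alpha chain of laminin receptors, stood at 10.1 and 17.7 CPM without S7 and 48.6 and 53.5 with it (log2 fold change 1.92 ± 0.32, adjusted p = 0.0119). The 2 arms without S7 differed from each other here, but both were well below the arms with it. Itga10, a collagen-binding chain, was scarce, at 1.46 and 1.42 CPM without S7 against 6.31 and 6.37 with it (2.14 ± 0.39, adjusted p = 0.0147).

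Itgb4, the beta chain that pairs with alpha 6 in hemidesmosomes, was scarcer still. It measured 0.992 and 0.879 CPM without S7 and 2.89 and 3.76 with it (log2 fold change 1.82 ± 0.31, adjusted p = 0.012). Pxn, the scaffold protein paxillin, was the only signalling member called on day 3. Its levels were 112 and 121 CPM without S7 and 194 and 198 with it (0.75 ± 0.09, adjusted p = 0.0033).

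In the other direction, Itga4, the alpha chain that binds VCAM1 and fibronectin, stood at 11.8 and 8.03 CPM without S7 against 5.28 and 4.45 with it. It averaged 9.89 CPM without S7 and 4.87 with it (SE of the log2 fold change 0.15, adjusted p = 0.00827). Itga7 and Itga6, both chains of laminin receptors, were lower by smaller amounts, with log2 fold changes of -0.63 ± 0.10 and -0.47 ± 0.08. Within the laminin receptor chains, Itga3 and Itgb4 were thus higher and Itga6 and Itga7 lower in the same libraries. Itgb3, the beta chain of the vitronectin receptor, was at 11.0 and 11.1 CPM with S7 and 3.91 and 4.79 without it, and missed the threshold (1.33 ± 0.39, adjusted p = 0.0715).

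The day 3 calls depended on single libraries. Leaving out any 1 library of day 3, which left 1 library on a side, lost most of the 8 calls. Calls over all genes fell in those fits as well. Without PCL-O day 7 or PCL-E day 7 more members were called, and more of all genes too. All 8 called members kept their sign in the 8 fits that each left out 1 library, and Itga5 was called in every one of them.

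By day 7 the arms with S7 stood below the arms without it in most of the set. Of 30 members 22 were lower, 4 were higher and 4 were not called, where 26.2% of all genes tested were called lower and 24.9% higher. The median log2 fold change was -0.93, against -0.03 over all genes. Lower calls took in 8 of 11 alpha subunits, 3 of 4 beta subunits, 8 of 9 structural proteins, 2 of 3 ILK complex members and 1 of 3 signalling members. The higher calls were Itga3, Itga5, Pxn and Bcar1. Itgb4, Tns1, Ilk and Itga2 were not called.

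Itgb1 measured 3667 CPM in PCL-O, 3436 in PCL-E, 1486 in PCL-SE and 1602 in PCL-S on day 7. It was 2.30-fold lower with S7 (log2 fold change -1.20 ± 0.09, adjusted p = 1.8e-04). On day 3 the same 4 arms had been close together, at 3951 and 3820 CPM without S7 and 4459 and 4596 with it. The minor beta chains Itgb8 and Itgb3 were also lower on day 7, with log2 fold changes of -1.78 ± 0.43 and -1.34 ± 0.39. Itgb8 had 21 and 16 counts in the S7 libraries, and its call was lost without PCL-E day 7 or PCL-SE day 7. That of Itgb3 was lost without PCL-O, PCL-S or PCL-SE day 7.

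The alpha subunits held the largest falls. Itga4 was measured at 19.7 and 13.9 CPM without S7 and 1.80 and 1.13 with it (log2 fold change -3.53 ± 0.17, adjusted p = 8.8e-05). Itga1, a collagen receptor chain, stood at 193 and 128 CPM without S7 against 17.7 and 23.0 with it (-2.96 ± 0.22, adjusted p = 1.9e-04). Itga8, a chain that binds the RGD motif of matrix proteins such as nephronectin, stood at 515 and 384 CPM without S7 and 85.3 and 93.8 with it (-2.32 ± 0.15, adjusted p = 1.4e-04). In each of these PCL-E was below PCL-O, and both S7 libraries lay far below PCL-E. Itga7 was at 23.8 and 24.1 CPM without S7 and at 7.21 and 5.63 with it (-1.91 ± 0.11, adjusted p = 1.3e-04).

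Itga11, the main collagen-binding chain of fibroblasts, stood at 508 CPM in PCL-O and 638 in PCL-E, against 155 and 154 in the S7 arms (log2 fold change -1.89 ± 0.11, adjusted p = 1.3e-04). Itgav, which pairs with several beta chains to bind vitronectin and latent TGF-beta, stood at 442 and 263 CPM without S7 and 103 and 108 with it (-1.71 ± 0.19). The 2 arms without S7 lay apart for Itgav, and even the lower of them exceeded both S7 libraries. Itga10, higher with S7 on day 3, was lower on day 7, at 3.62 and 1.32 CPM against 1.00 and 0.692 (-1.47 ± 0.40, adjusted p = 0.0215). That call was lost without PCL-O, PCL-S or PCL-SE day 7. Itga6 was lower by 0.69 ± 0.08 on the log2 scale.

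Against that direction, Itga3 stood on day 7 at 33.1 and 26.6 CPM with S7 and at 5.18 and 11.6 without it (log2 fold change 1.90 ± 0.33, adjusted p = 0.00354). Itga5 was at 257 and 256 CPM with S7 and at 185 and 166 without it (0.55 ± 0.08, adjusted p = 0.00199). Of the alpha subunits called higher on day 3, these 2 were called higher on day 7 as well. Itga2, a collagen receptor chain below 2 CPM in every library, did not pass on either day.

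Of the 9 proteins that carry force to actin, 8 were lower with S7 on day 7 and Tns1 was not called. Flna stood at 6992 CPM in PCL-O, 4991 in PCL-E, 2825 in PCL-SE and 2753 in PCL-S (log2 fold change -1.09 ± 0.14, adjusted p = 0.00106). Vcl, which strengthens the link between talin and actin, stood at 1680 and 1214 CPM without S7 and 620.4 and 639.8 with it (-1.19 ± 0.14, adjusted p = 8.8e-04). For both genes PCL-E lay between PCL-O and the S7 arms, and the groups did not overlap. Actn4 stood at 2097 and 1782 CPM without S7 and 1067 and 983 with it (-0.92 ± 0.09), and Actn1 at 1393 and 1029 CPM against 639 and 622 (-0.93 ± 0.13).

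Both talins, which bind integrin beta tails and activate the receptor, were lower too. Tln2, the scarcer one, had a log2 fold change of -1.45 ± 0.18, with 135 and 83.5 CPM without S7 and 41.1 and 37.7 with it. Tln1 had one of -1.06 ± 0.14. Fermt2 (kindlin-2) and Zyx (zyxin) moved less, at -0.43 ± 0.08 and -0.43 ± 0.13, and neither was called under total-count scaling. Tns1 (tensin 1) was the structural member without a call (0.09 ± 0.26, adjusted p = 0.782). On day 7 it was lowest in PCL-E, at 239 CPM, and stood at 457 in PCL-O, 369 in PCL-SE and 358 in PCL-S.

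Within the ILK complex 2 of the 3 members were called on day 7, and no test compared the members with each other. Parva (alpha-parvin) was lower with S7 by 0.50 ± 0.11 on the log2 scale (adjusted p = 0.00775) and Lims1 (PINCH1) by 0.35 ± 0.12 (adjusted p = 0.0398). Ilk itself, the pseudokinase that holds the complex together, stood at 303 and 312 CPM without S7 and 298 and 284 with it, with a log2 fold change of -0.08 ± 0.08 (adjusted p = 0.426). All 4 libraries of day 7 thus lay within 284 to 312 CPM.

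The signalling members split. Pxn reached 258 and 240.1 CPM with S7 on day 7 against 102 and 97.7 without it, which is 2.50-fold higher (log2 fold change 1.32 ± 0.09, adjusted p = 1.5e-04). Bcar1, which encodes the docking protein p130Cas, reached 318 and 271 CPM against 116 and 148 (1.16 ± 0.14, adjusted p = 7.9e-04). Ptk2, which encodes focal adhesion kinase, was lower, at 92.1 and 79.5 CPM with S7 and 139 in each arm without it (-0.70 ± 0.09, adjusted p = 0.00109). The kinase and its 2 scaffold partners thus stood on opposite sides of the arms without S7 in the same libraries.

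**Figure D2:**
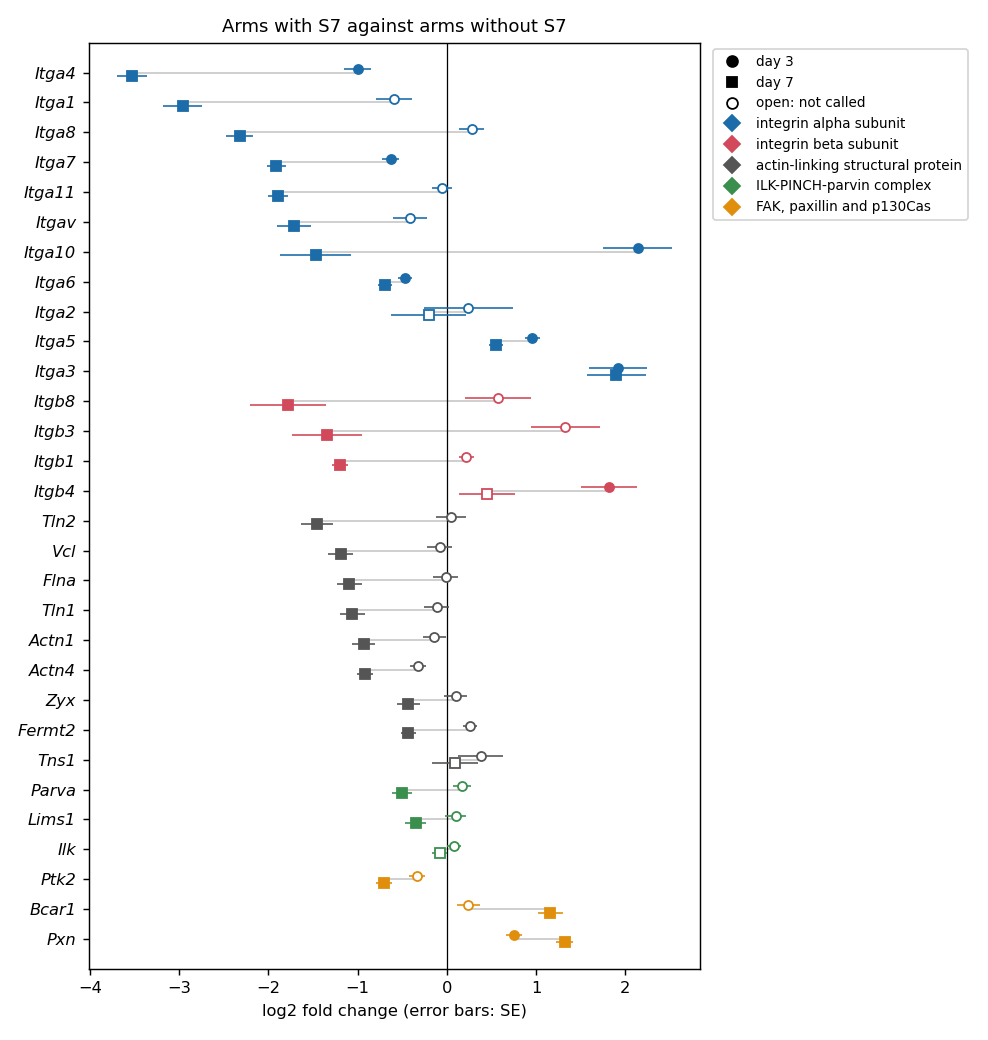
Log2 fold change of the arms with S7 against those without it for 30 members, on day 3 (circles) and day 7 (squares), with the SE as error bars and filled marks for adjusted p under 0.05. Most circles sit near 0, while 22 squares are filled to the left of 0 and 4 (Itga3, Itga5, Pxn and Bcar1) to the right.

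Scaling bears on the day 7 values. With scaling to total counts in place of TMM, the median of all genes moved to 0.19 on the log2 scale, and 65.2% of all calls were then higher against 48.7% under TMM. The members' median became -0.70, with 19 called lower and 4 higher. Fermt2, Lims1 and Zyx lost their calls, and the uncalled Ilk and Itga2 changed sign. Leaving out 1 library at a time gave 20 to 26 called members, and 19 were called in every such fit, Itgb1, Flna, Vcl, Itga5, Pxn and Bcar1 among them. Lims1 and Zyx lost their calls in all of these fits but the one without PCL-E day 7, and Fermt2 and Parva in the one without PCL-S day 7.

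Promoter sequence is shown for 3 structural genes, since 2 of them carry a CArG box, the motif of serum response factor, and the third carries GGAATG, a motif of TEAD factors, both factors known to act on cytoskeletal genes. The 250 bases before the first-listed RefSeq start were read from the mouse build GRCm38.p6, the organism of the labels, although the table's gene identifiers are those of rat. Each line runs 5′ to 3′ on the gene's strand with motif matches in capitals: Vcl at chr14:20929148-20929397 (plus strand), Fermt2 at chr14:45530066-45530315 (minus strand) and Flna at chrX:74246535-74246784 (minus strand).
Vcl: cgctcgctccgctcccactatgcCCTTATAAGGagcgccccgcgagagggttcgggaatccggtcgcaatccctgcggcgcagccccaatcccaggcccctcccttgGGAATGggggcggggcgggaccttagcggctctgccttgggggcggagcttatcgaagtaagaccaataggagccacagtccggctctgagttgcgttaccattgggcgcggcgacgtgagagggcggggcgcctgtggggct
Fermt2: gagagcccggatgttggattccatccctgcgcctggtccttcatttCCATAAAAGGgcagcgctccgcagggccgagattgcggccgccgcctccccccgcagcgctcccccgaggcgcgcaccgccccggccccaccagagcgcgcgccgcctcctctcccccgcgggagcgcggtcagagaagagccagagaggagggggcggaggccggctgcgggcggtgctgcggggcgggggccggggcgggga
Flna: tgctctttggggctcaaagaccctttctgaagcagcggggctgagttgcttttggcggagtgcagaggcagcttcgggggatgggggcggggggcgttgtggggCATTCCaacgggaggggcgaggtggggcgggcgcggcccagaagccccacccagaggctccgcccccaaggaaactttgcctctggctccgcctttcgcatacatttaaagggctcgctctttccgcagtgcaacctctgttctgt

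A promoter was found for 25 of the 34 genes, 22 of them tested. Both strands were searched, and the 2 motifs do not overlap in these windows. The CArG box occurred in Fermt2 and Vcl, and in 1.4% of 27025 promoters of the same length. GGAATG occurred in Actn4, Flna, Itga10, Itgb1 and Vcl, which is 5 of the 22, and in 12.6% of all promoters. In Flna the match lies on the opposite strand and reads CATTCC. A match describes letters in a window, and no binding was measured here.

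The makeup of the alpha subunits shifted with these changes. On the FPKM scale the 12 alpha subunits summed to 409 to 429 in every day 3 library and in PCL-O on day 7. On day 7 the sum was 396 in PCL-E, 196 in PCL-SE and 192 in PCL-S. Itga5 made up 8.80% to 9.20% of the sum in the 4 libraries without S7. Its share with S7 was 17.5% and 17.3% on day 3, and 32.9% and 32.2% on day 7. Itga8 took 20.9% to 26.2% on day 3, and on day 7 it took 18.4% and 16.0% without S7 and 8.20% and 8.85% with it. These are shares of a sum, so a share can climb while the gene's own level drops, as for Itga6 between PCL-O (8.11%) and PCL-S (13.8%) on day 7.

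Grouped by ligand, the collagen-binding chains (Itga1, Itga2, Itga10 and Itga11) held 32.9% of the alpha sum in PCL-O and 41.2% in PCL-E on day 7, against 21.6% and 21.7% with S7. The laminin-binding chains (Itga3, Itga6 and Itga7) held 9.45% and 12.4% against 18.6% and 18.1%. The chains that bind RGD motifs (Itga5, Itga8 and Itgav) held 56.4% and 45.4% against 59.5% and 60.0%. Within them Itga8 held a smaller share with S7 than in either arm without it, whereas Itgav, at 18.4% and 19.0% with S7, was below PCL-O (29.2%) but close to PCL-E (20.2%). PCL-E on day 7 stood apart through Itga11, at 33.6% of its sum. No test was run on the shares, and the summed alpha FPKM stayed at 0.367 to 0.473 of the summed beta FPKM in all libraries.

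**Figure D3:**
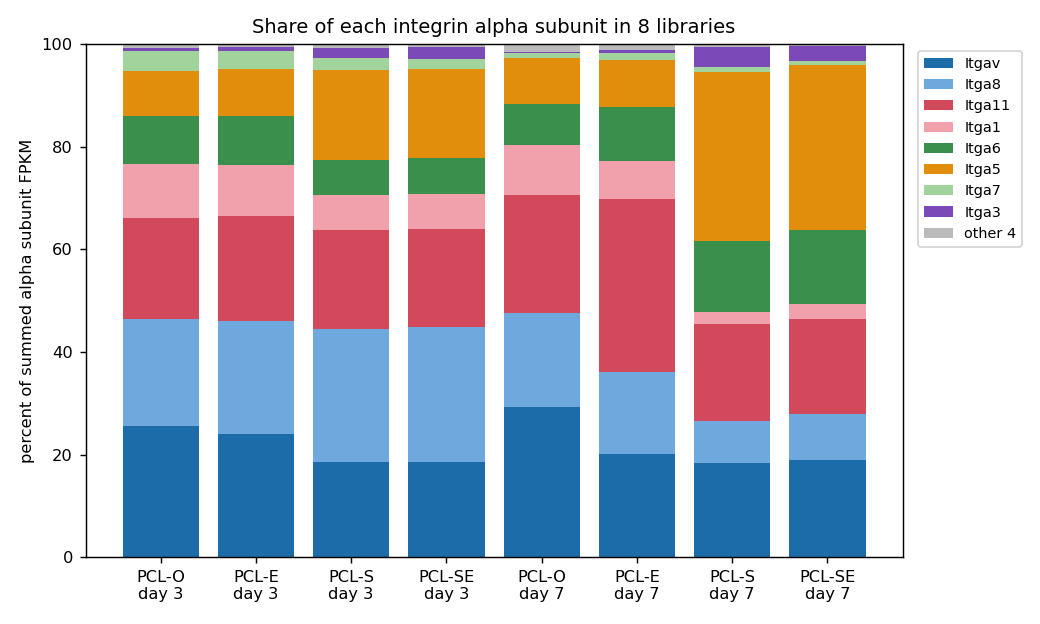
Share of each integrin alpha subunit in the summed alpha FPKM of each of the 8 libraries (stacked bars, vertical axis in percent from 0 to 100; "other 4" are Itga2, Itga4, Itga9 and Itga10). The orange Itga5 band widens from 8.80% to 9.20% in the libraries without S7 to 32.9% and 32.2% in the S7 libraries of day 7.

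The change from day 3 to day 7 was then taken within the arms. Without S7, 1 member of 30 was lower on day 7 and none was higher, where 0.935% of all genes were called lower and 0.671% higher. That member was Itga7, the laminin receptor chain known from muscle, which stood at 77.5 and 69.2 CPM on day 3 and at 23.8 and 24.1 on day 7 (log2 fold change -1.61 ± 0.10, adjusted p = 0.00901). The members' median was -0.13, against 0.01 over all genes. The count rested on the libraries used. The call of Itga7 was lost without PCL-O day 3 or PCL-E day 3, and more members were called without PCL-O day 7. Calls over all genes fell and rose in the same fits. DESeq2 called 6 members and 832 genes in all.

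With S7, 26 of 30 members fell from day 3 to day 7 and 2 rose, where 26.4% of all genes were called lower and 24.4% higher. The median log2 change was -1.15, against -0.03 over all genes. All 4 tested beta subunits, 9 of 11 alpha subunits, all 9 structural proteins and all 3 ILK complex members fell. Itga3 and Itga2 were not called.

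Itga8 went from 726 and 713 CPM on day 3 to 85.3 and 93.8 on day 7, a log2 fold change of -3.00 ± 0.15 (adjusted p = 1.1e-04). Itga1 went from 136 and 132 CPM to 17.7 and 23.0 (-2.71 ± 0.21). Itga7 went from 48.2 and 46.6 CPM to 7.21 and 5.63 (-2.89 ± 0.11). Itga10 and Itgb8, both scarce, went from 6.31 and 6.37 CPM to 1.00 and 0.692 (-2.94 ± 0.40) and from 2.92 and 3.67 to 0.554 and 0.369 (-2.83 ± 0.42). In all 5 genes the 2 S7 libraries of a day were close to each other compared with the distance between the days.

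The abundant members fell by smaller factors over the same interval. Itgb1 fell by 1.55 ± 0.09 on the log2 scale, Flna by 1.57 ± 0.14, Tln1 by 1.51 ± 0.14 and Vcl by 1.19 ± 0.14. Itga5 fell by 0.49 ± 0.08 and so stayed above the arms without S7 while dropping. Bcar1 rose by 1.17 ± 0.14, from 128 and 134 CPM to 318 and 271, and Pxn by 0.35 ± 0.08. Under total-count scaling, which moved the median of all genes to 0.28 and the share of calls that were higher from 48.1% to 70.0%, 21 members fell and 3 rose. Ilk, Itga5, Itga6, Lims1 and Ptk2 then lost their calls, whereas 20 members kept theirs in all 8 fits that left out 1 library under TMM.

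**Figure D4:**
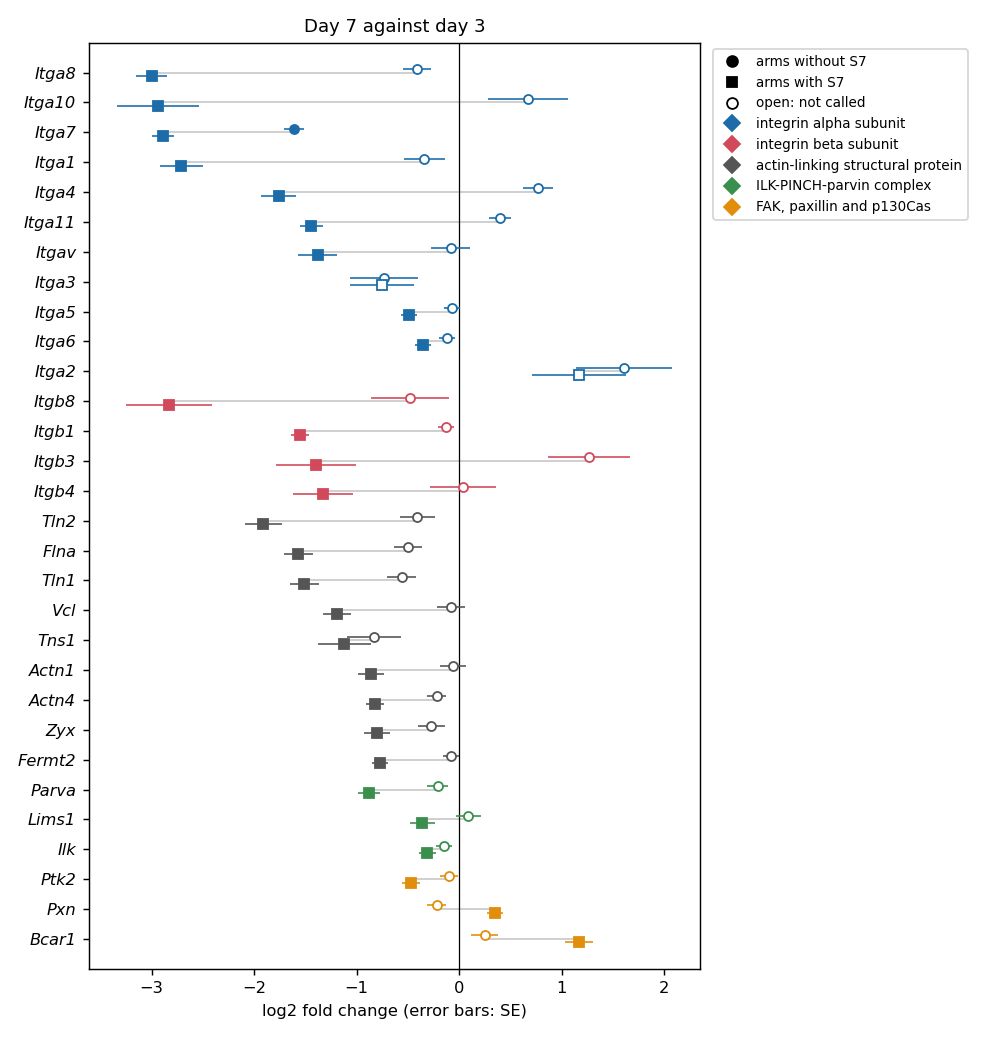
Log2 fold change of day 7 against day 3 for 30 members in the arms without S7 (circles) and with S7 (squares), with the SE as error bars and filled marks for adjusted p under 0.05. Itga7 has the only filled circle, while 26 squares are filled to the left of 0 and 2 (Bcar1 and Pxn) to the right.

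Whether the S7 difference itself changed between the days was tested by the interaction of S7 and day. It was called in 21 members, 19 with a lower S7 effect on day 7 than on day 3 and 2 (Bcar1 and Pxn) with a higher one. Over all genes, 15.5% were called lower and 13.2% higher. The median was -0.87, against -0.03. The largest values were those of Itga10 (-3.61 ± 0.56, adjusted p = 0.00593), Itgb3 (-2.66 ± 0.56), Itga8 (-2.60 ± 0.20), Itga4 (-2.52 ± 0.22) and Itga1 (-2.37 ± 0.29).

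For Itgb3 the pattern crossed over. With S7 it went from 11.0 and 11.1 CPM on day 3 to 4.83 and 3.67 on day 7, while PCL-O went from 3.91 to 16.6 and PCL-E from 4.79 to 5.97. The high value was that of PCL-O on day 7 alone. Its interaction call was lost without any of 4 libraries, PCL-O day 3, PCL-SE day 3, PCL-S day 7 or PCL-SE day 7. Leaving out 1 library gave 8 to 24 called members. Itga1, Itga4, Itga7, Itga8, Itga10, Itga11, Itgb1 and Tln2 were called in all 8 such fits. Total-count scaling, which moved the median of all genes to 0.21 and the higher share of calls from 46.0% to 68.0%, left 17 members lower and 2 higher.

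E7 gave no call. The E7 term, over both days and with and without S7, was called in 0 of 30 members and in 0% of all genes in either direction, while 589 genes were at an unadjusted p under 0.05. DESeq2 called 0 members and 1 gene in all. The members' median was -0.09, against -0.00 over all genes, and the values ran from -0.49 for Itga10 to 0.40 for Itga3. A missed threshold does not show that E7 left these genes as they were, since the SE ran from 0.05 for Ilk to 0.32 for Itga2.

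Set side by side as single libraries, with 2 CPM added before the ratio and as a description that was not tested, PCL-E and PCL-O were near each other on day 3. Their log2 ratios ran from -0.46 (Itga4) to 0.70 (Itga3) with a median of -0.00. On day 7 the ratios of PCL-E to PCL-O had a median of -0.29, against 0.00 over all genes, and 21 of 30 members were below 0, as were 49.8% of all genes. Itgb3 had a ratio of -1.22, Tns1 of -0.93, Itga10 of -0.76, Itgav of -0.75, Tln2 of -0.68 and Itga1 of -0.59. Itga3 had the highest ratio, 0.92. Between the arms with S7, the ratios of PCL-SE to PCL-S on day 7 ran from -0.32 (Itga2) to 0.35 (Itga1) with a median of -0.08, against -0.00 over all genes. Here too 21 of 30 members were below 0, as were 50.6% of all genes.

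The genes around the set were described by 5 further lists, on day 7 with S7 against without. Their counts are to be read against the 26.2% of all genes called lower and 24.9% called higher on that day, and their medians against -0.03 over all genes. Among ligands of integrins in the matrix, 21 of 25 tested genes were lower and 1 was higher, with a median log2 fold change of -1.41. Tnc (tenascin C) stood at 4366 and 2989 CPM without S7 against 289 and 283 with it. Spp1 (osteopontin), the 1 ligand called higher, stood at 1358 and 1002 CPM without S7 against 1461 and 2418 with it, and its adjusted p was 0.0485. On day 3 the ligands had split, with 7 higher and 7 lower of 25, where 7.1% of all genes were called higher and 6.87% lower. Tnn (tenascin N) was then at 327 and 303 CPM with S7 and 21.0 and 27.7 without it, while Postn (periostin) was at 3033 and 2908 with S7 and 8176 and 5738 without it.

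Stress fibre genes were lower in 14 of 18 cases and higher in 1 on day 7, with a median of -1.12. Acta2 (smooth muscle actin) stood at 8765 and 6985 CPM without S7 against 1829 and 1616 with it. Cald1 (caldesmon) stood at 5099 and 4469 CPM against 976 and 1100. Diaph1, a formin that nucleates actin filaments, was the exception, at 98.5 and 94.1 CPM with S7 and 49.5 and 44.1 without it. On day 3, 5 of the 18 stress fibre genes were lower and 1 was higher, against 6.87% and 7.1% of all genes.

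Other adhesion adaptors were mixed, with 17 of 33 lower and a median of -0.43, while the 7 called higher were near the 24.9% of all genes. Parvb (beta-parvin) reached 197 and 173 CPM with S7 on day 7 against 42.6 and 94.4 without it, the opposite direction to Parva. Nexn (nexilin), an actin-binding protein, stood at 24.4 and 32.2 CPM with S7 against 136 and 118. On day 3, 8 of the 33 adaptors were higher with S7 and 6 were lower, against 7.1% and 6.87% of all genes. Of the adhesion signalling genes, 11 of 34 were lower and 7 higher, with a median of -0.02, close to the background of all genes in both directions and in the median. Nedd9, a relative of p130Cas, was at 44.6 and 59.4 CPM with S7 against 255 and 193 without it, and Ptk2b (Pyk2), a relative of focal adhesion kinase, at 10.6 and 13.4 against 55.3 and 26.4. Nedd9 and Bcar1, which belong to 1 family, were thus called in opposite directions on day 7. Efs, of the same family, was called higher, at 54.4 and 52.5 CPM with S7 against 27.8 and 32.6. Git1 was called higher as well, at 110.2 and 97.0 CPM against 69.2 and 69.3.

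Of the membrane partners of integrins, 8 of 14 were higher and 4 were lower on day 7, with a median of 0.37, against 24.9% and 26.2% of all genes. Cd63, a tetraspanin, reached 906 and 859 CPM with S7 on day 7 against 471 and 524, and Cd44, the hyaluronan receptor, 439.8 and 435 against 236 and 285. Cav1 (caveolin 1) was lower, at 122 and 111 CPM against 551 and 335, and so was Sdc2 (syndecan 2), at 182 and 161 against 729.9 and 529.5. From day 3 to day 7 without S7, calls in these 5 lists were 0 of 14 partners, 4 of 25 ligands, 2 of 33 adaptors, 1 of 34 signalling genes and 2 of 18 stress fibre genes, where 0.671% of all genes were called higher and 0.935% lower. E7 was called in none of them.

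Markers of cell identity moved with some of these values. The 8 mesenchymal stromal markers found, of 9 listed, summed to 1654 to 1944 CPM on day 3. On day 7 they summed to 1661 in PCL-O, 1367 in PCL-E and 1360 and 1380 with S7. Each of the 8 reached 1 CPM in at least 1 library. On day 7 Cxcl12 was at 0.528 and 0.438 CPM with S7 and 3.85 and 4.53 without it. Lepr was at 0.607 and 0.415 CPM against 2.35 and 3.67. Thy1, at 364 and 332 CPM against 441 and 492, and Eng, at 53.1 and 47.8 against 60.1 and 66.9, were lower too. So was Nt5e, at 1.66 and 2.01 CPM against 3.75 and 2.58. Pdgfrb was mixed, at 433 and 490.2 CPM with S7 against 861 and 479.9, whereas Cd44 and Pdgfra were higher with S7. The 7 osteoblast markers summed to 20266 to 34936 CPM on day 3, and on day 7 to 25987 in PCL-O, 15090 in PCL-E and 4951 and 4594 with S7. Nearly all of that sum was Col1a1, itself a ligand of collagen-binding integrins. Sp7 and Bglap, 2 genes of the osteoblast lineage, stayed below 1 CPM in all 8 libraries. The other markers split on day 7. Runx2 was at 26.3 and 30.4 CPM with S7 and 20.6 and 23.6 without it. Alpl was at 0.607 and 1.15 CPM against 13.8 and 8.43, and Dmp1 at 0.158 and 0.392 against 9.47 and 1.69. Summed endothelial markers (4 of 5 found) were 13.8 and 15.4 CPM with S7 on day 3 and 3.53 to 7.18 elsewhere, almost all of it Tek, with Cdh5 at 0. Platelet markers (5 of 5) summed to 0.254 to 0.869 CPM and epithelial markers (5 of 5) to 2.98 to 11.0, the highest in PCL-E day 7. The part of a shift in cell state or cell number in the integrin values was not tested.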

How the data were processed

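Members, lists and tests were chosen with earlier results of these data known. Whole-number counts of each gene, per the file headers, came in 1 table that the authors deposited for all 8 libraries. The table also holds FPKM, which the authors scaled by transcript length and library total, per the file headers, and which served to compare one gene with another. The labels' protocols give TRIzol extraction, a SMARTER mRNA kit and a single line of cells. The sources used here name no aligner or counting tool and do not say how reads of paralogs or overlapping genes were assigned. Of 26873 features, 22050 carry rat Ensembl identifiers and 0 carry mouse ones, although the labels give Mus musculus. Gene symbols are those of the table, and 10 lines of it that held annotation text were dropped.

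Genes with few counts were removed with filterByExpr. TMM scaling and the fit over all 8 libraries, with terms for S7, E7, day and S7 by day, used edgeR 4.0.16 (R 4.3.3), with a biological coefficient of variation of 0.137. Alternatives were DESeq2 1.42.0, other scalings and designs, no filter, a 2-fold minimum, and 1 library left out at a time. Every member could be named, with values in each library for the 5 largest called changes of each comparison and the 5 most abundant members, and likewise the largest called changes of each further list. Which of these list genes, and which other members, are given in full was chosen after their values were seen. Tables and plots used Python 3.11.15, pandas 2.3.3 and matplotlib 3.10.9.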

Additional observations from a re-analysis of the deposited data

Results flagged for a closer look

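In 21 members the S7 effect differed between day 7 and day 3 by the interaction term (edgeR's quasi-likelihood test, adjusted p under 0.05). The differences in log2 fold change were -3.61 for Itga10, -2.66 for Itgb3, -2.60 for Itga8, -2.52 for Itga4, -2.37 for Itga1 and -2.35 for Itgb8. They were -1.84 for Itga11, -1.50 for Tln2, -1.42 for Itgb1, -1.30 for Itgav, -1.28 for Itga7, -1.11 for Vcl and -1.08 for Flna. Smaller ones were -0.95 for Tln1, -0.80 for Actn1, -0.69 for Fermt2, -0.67 for Parva, -0.60 for Actn4 and -0.42 for Itga5. Bcar1 and Pxn had the opposite sign, at 0.93 and 0.57. Of the 21, Itga10 was the member called higher with S7 on day 3 and lower on day 7.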

How the results depend on the processing

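The number of members called hung on the model. An additive fit of arm and day, whose coefficient of variation was 0.281, has no S7 by day term and so gives no value for a single day. For PCL-S against PCL-O over both days it called 1 member (Itga3) and 201 genes in all. For day it called 0 members and 6 genes in all. Itga10 had a log2 fold change of -0.13 for PCL-S against PCL-O over both days. With a 2-fold minimum the calls were 4 for S7 on day 3, 17 for S7 on day 7, 17 for day with S7 and 13 for the interaction. Over all 15942 genes the same minimum left 874, 3064, 3083 and 2004 calls in that order. DESeq2 called 13 members and 2690 genes in all for S7 on day 3, and 6 and 832 for day without S7. Total-count scaling called 2 members and 279 genes in all for day without S7. Leaving out 1 library gave 1 to 17 members for S7 on day 3, 20 to 26 for S7 on day 7, 0 to 13 for day without S7, 20 to 29 for day with S7 and 8 to 24 for the interaction. Calls over all genes varied between those fits as well. With DESeq2-style size factors, no filter or no E7 term, every called member kept its sign and its call. A fit of all 2-way interactions, with 1 residual degree of freedom, lost Lims1 for S7 on day 7, Ilk and Lims1 for day with S7, and Actn4 and Itga5 for the interaction. E7 was called in 0 members under every alternative run. The causes of these differences were not tested. Itga9, Itgb2, Itgb6 and Itgb7 had too few counts to pass the filter and were not tested in the fit reported.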
